A study of Callithrix jacchus with 20 samples.

Results

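The data described here are those of pre-ME cells, precursors of mesendoderm, made for 24 h in the presence or absence of Activin A (ActA) from marmoset iPSCs (cjiPSCs) that had been kept in TESR medium. The comparison takes in 4 libraries, 2 from TESR pre-ME + ActA and 2 from TESR pre-ME - ActA, out of 20 libraries in the series, and it was read across all 25102 annotated genes. All libraries are labelled as the line DPZ_cjiPSC2 of the common marmoset (Callithrix jacchus), which was made from foetal fibroblasts reprogrammed with episomal plasmids. The series asks how pre-induction of marmoset iPSCs prepares them to become primordial germ cell-like cells, and the other libraries are from cjiPSCs in TESR or in the medium cjPSCM, pre-ME made from the cjPSCM cultures, and sorted germ cell-like and somatic cells.

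Both groups were plated at 200000 cells per well on vitronectin in aRB27 medium with 3 µM CHIR, an inhibitor of GSK3 that switches on canonical WNT signalling, and 10 µM of the ROCK inhibitor Y-27632. The + ActA group had 100 ng/ml ActA as well, and the protocol names no other difference. The groups therefore differ by ActA on top of WNT activation, and neither of them is an untreated culture. Replicates are called R1 and R2, and they are labelled as biological replicates of 1 line, so that the tests measure the spread between cultures and not between animals.

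ActA is a ligand of the TGFβ superfamily. It binds the type II receptors ACVR2A and ACVR2B, which activate the type I receptor ACVR1B, and this phosphorylates SMAD2 and SMAD3. These join SMAD4 and reach target genes with DNA-binding partners such as FOXH1 and EOMES. The embryonic ligand NODAL uses the same receptors together with the co-receptor TDGF1, and the pathway drives its own inhibitors, among them the LEFTY proteins, CER1 and SMAD7. In the gastrulating embryo, NODAL and WNT signals together induce the primitive streak, from which mesoderm and definitive endoderm arise, and in primed pluripotent cells the same pathway sustains NANOG.

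The 4 libraries held 18858625 and 22067099 reads on genes without ActA and 20036527 and 20718379 with it, in a series that ranged from 4784964 to 22067099. At this depth 3 counts, the smallest level read as a signal here, stand for 0.136 to 0.159 CPM. The replicates lay closer together than those of any other group, with an SD over genes of the log2 difference of 0.343 with ActA and 0.318 without, against 0.462 to 0.974 elsewhere. Of the streak markers TBXT, EOMES, MIXL1, EVX1, SP5 and LHX1, SP5 had 3672 and 4380.1 normalised counts without and 3195 and 3828 with ActA, and the other 5 summed to 794 and 596 without and 2786 and 1977 with it. The pluripotency markers POU5F1, NANOG, SOX2 and LIN28A summed to 20152 and 19104 without and 16686 and 15551 with ActA, of which LIN28A, an RNA-binding protein, had 15577 and 14246 without and 11669 and 10107 with it. The log2 fold change of LIN28A was -0.45 (adjusted p = 0.255, and adjusted p = 0.00784 with edgeR on the 4 libraries alone). Of the markers of blood and endothelium (PECAM1, CDH5, TAL1, KDR and GATA1), TAL1 and KDR rose, PECAM1 and CDH5 did not pass, GATA1 was at 3 counts or fewer in all 4 libraries, and the sum went from 1333 and 1327 to 2447 and 2869. Of the endoderm markers, FOXA1, HNF4A and TTR were at 3 counts or fewer in all 4 libraries, SOX17, FOXA2 and APOA1 did not pass, and the 6 summed to 185 and 131 without and 279 and 139 with ActA. The germ cell markers DDX4, DAZL and NANOS3 summed to 11.0 and 9.36 without and 9.85 and 6.90 with ActA, with DDX4 at 3 counts or fewer in all 4. Of the fibroblast markers, COL1A1 had 522 and 353 without and 2236 and 1515 with ActA, and COL1A2, COL3A1, LUM, DCN and THY1 summed to 801 and 643 without and to 1016 and 816 with it. None of the 6 passed the test, and THY1 had a log2 fold change of -0.68. Neural markers (SOX1, which was at 3 counts or fewer in all 4, PAX6, SOX3, NES and NEUROG2) summed to 16301 and 17069 without and 20121 and 21466 with ActA. Of these NES, a gene of progenitors of several tissues, had 15845 and 16509.8 without and 20005 and 21304 with it. NES and PAX6 did not pass, and SOX3 fell, against the direction of the sum. Of the amnion markers (TFAP2A, GATA3, ISL1, VTCN1 and GABRP), ISL1 rose, TFAP2A fell and the other 3 did not pass, and the sum went from 709 and 641 to 1757 and 1509. Their part in the results was not tested.

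ActA raised more genes than it lowered. Of 15797 genes with enough counts to be tested, 226 (1.43%) were higher and 90 (0.57%) lower with ActA by edgeR's quasi-likelihood test, and these are called differentially expressed. They have an adjusted p under 0.05 together with a log2 fold change beyond 2 in either direction. At the adjusted p alone, which is what "rose" and "fell" mean in the following, 890 genes (5.63%) rose and 506 (3.20%) fell, while the median log2 fold change of all tested genes was 0.01. The median fitted log2 fold change was 2.76 for the higher and -2.47 for the lower genes. With genes at the floor in 1 group set to their bound these medians were 2.68 and -2.42. On that basis changes over 8-fold were found for 77 higher and 12 lower genes and over 16-fold for 29 and 1, and the bound was under 4-fold for 5 of the higher and 5 of the lower genes. In 225 of the 226 higher genes and all 90 lower genes the libraries of the groups did not overlap, against 34.2% of tested genes with both + ActA libraries on top and 32.1% with both below. Some of the higher genes were almost silent without ActA: 28 had 3 counts or fewer in both - ActA libraries, and 10 of the lower genes had 3 or fewer in both + ActA libraries. Since these are cultures measured in bulk, fewer cells of a type and less RNA per cell cannot be told apart. The genes next to the fold threshold were SYT17 at 2.01 and TFAP2A at -2.01 inside it and PTGER2 at 1.99 and TTYH1 at -1.99 outside. The call of SYT17 was lost without - ActA R2 (adjusted p = 0.0782). These counts depended on the libraries and on the test. With a library left out there were 151 (without - ActA R2) to 203 higher and 56 (without + ActA R2) to 75 lower differentially expressed genes, and glmTreat, which tests against the log2 fold change of 2 itself, called 45 and 2. At the adjusted p alone, 495 genes rose and 240 fell without - ActA R1, 379 and 186 without - ActA R2, 484 and 174 without + ActA R1 and 536 and 184 without + ActA R2, whereas edgeR on the 4 libraries alone gave 2321 and 1975 and DESeq2 on them 1768 and 1210.

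**Figure D1:**
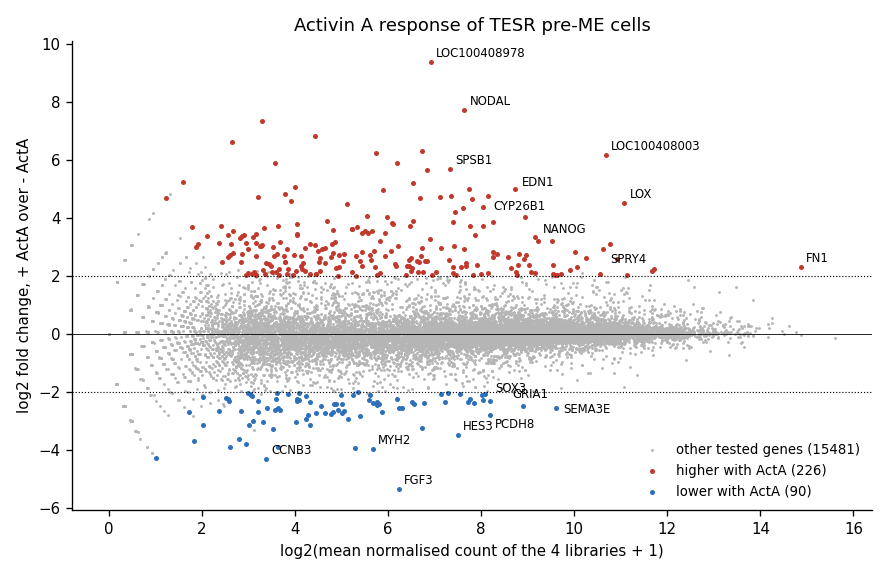
Log2 fold change of TESR pre-ME + ActA over - ActA (y) against the log2 mean normalised count of the 4 libraries plus 1 (x), 1 point per tested gene. The 226 genes in red and 90 in blue are past both thresholds (dotted lines at a log2 fold change of 2 and -2), and the higher genes reach further from 0, up to a fitted 9.38, than the lower ones, down to -5.34.

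Among the genes of the Activin/NODAL pathway itself, NODAL had the largest fitted rise of the differentially expressed genes with a symbol. Of 19 tested ligands, antagonists and feedback genes of the pathway, 9 rose and 0 fell (edgeR, with 0 lower at an unadjusted p under 0.05 and 0 by DESeq2 on all 20 libraries). The median log2 fold change was 1.23, against 0.01 over all genes. Of all tested genes 5.63% rose and 3.2% fell, the shares to set beside the counts of this and every other list. The 0 falls here and in the other short lists are near the share of falls. NODAL had 1.10 and 2.34 normalised counts without ActA and 564 and 228 with it (log2 fold change 7.72, SE 0.78, adjusted p = 5.93e-06). It was near 0 in both control libraries, and it is 1 of the 19 higher genes whose replicates with ActA differed more than 2-fold. In TESR cjiPSCs it was also near 0, with 1.10 and 0. The intracellular brakes of the pathway rose with it. PMEPA1, which sequesters SMAD2 and SMAD3, had 6.03 and 13.6 without and 284 and 248 with ActA (log2 fold change 4.72, SE 0.43, adjusted p = 2.74e-06). SKIL, a SMAD co-repressor, went from 274 and 234 to 1918 and 1727 (log2 fold change 2.84, SE 0.22, adjusted p = 5.02e-07). SMAD7, the inhibitory SMAD that targets the type I receptors, went from 161 and 124 to 715 and 771 (log2 fold change 2.38, SE 0.21, adjusted p = 1.97e-06). The + ActA replicates of these genes lay close together, and in none of them did the groups overlap. FSTL3, a secreted protein that binds activin, had 51.0 and 45.4 without and 196 and 229 with ActA (log2 fold change 2.14, SE 0.21, adjusted p = 5.80e-06). Smaller rises were seen in LTBP1, which anchors latent TGFβ in the matrix (1.24, adjusted p = 0.00396), in the pseudoreceptor BAMBI (1.23, adjusted p = 0.00981) and in the co-repressor TGIF1 (0.60, adjusted p = 0.00470).

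Other members did not pass the test. FST, the main activin-binding protein, had 5975 and 7296 without and 9754 and 12714 with ActA (log2 fold change 0.76, SE 0.37, adjusted p = 0.273). INHBA, the gene of the activin A subunit, had 4.39 and 8.89 without and 21.3 and 16.5 with ActA (log2 fold change 1.47, SE 0.49, adjusted p = 0.0773). CER1, a secreted NODAL antagonist of the anterior streak, was not tested, with 0 and 0 raw counts without and 9 and 6 with ActA, at least 2.66-fold higher against a floor of 3 counts per library. The NODAL co-receptor TDGF1 was not tested either, with 3 and 1 raw counts without and 11 and 7 with ActA. Calls that were lost with a library left out were those of BAMBI (without - ActA R2 or + ActA R1, adjusted p up to 0.185) and TGIF1 (without - ActA R2, adjusted p = 0.101).

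No row is named LEFTY1 or LEFTY2, but genes without a symbol were among the strongest responders. LOC100408978 had 0.549 and 0 normalised counts without and 273 and 209.6 with ActA, at least 158-fold higher against the floor (adjusted p = 1.56e-05), and its fitted log2 fold change of 9.38 topped the table. LOC100408003 went from 17.0 and 70.2 to 3214 and 3285 (log2 fold change 6.19, SE 0.51, adjusted p = 9.80e-07). RefSeq (assembly calJac240_pri) gives both as protein-coding with no symbol, so no name was assigned to them. LOC118153643, a long non-coding RNA next to PMEPA1, had 0 and 0 without and 18.6 and 16.5 with ActA, at least 11.5-fold higher (adjusted p = 1.71e-05). LOC118146891, next to SMAD7, had 24.1 and 26.2 without and 147 and 161 with ActA (log2 fold change 2.60, SE 0.32, adjusted p = 5.23e-05). LOC100385225, whose gene identifier carries the symbol MINAR1 in RefSeq while a further row of the table named MINAR1 had at most 1 count in each of these 4 libraries, had 3.29 and 1.87 without and 164 and 251 with ActA (log2 fold change 6.29, SE 0.62, adjusted p = 6.87e-06). LOC118152023, a protein-coding gene next to ENPEP, had 1.10 and 1.40 without and 115 and 92.9 with ActA, at least 68.1-fold higher (adjusted p = 8.17e-07). In all 6 both + ActA libraries stood far above both - ActA libraries. Neighbouring genes can share reads where they overlap, and the strand setting of the counting is not given in the sources used here, so such pairs are not independent measurements.

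Of 16 receptors and signal carriers tested, 4 rose and 2 fell, none beyond a log2 fold change of 2, with a median of 0.15. SMAD3 had 463 and 575 normalised counts without and 1127 and 1344 with ActA (log2 fold change 1.25, SE 0.15, adjusted p = 2.61e-05), whereas SMAD2 (0.20) and SMAD4 (0.06) did not pass. ACVR1, a type I receptor best known for BMP signals, had 261 and 236 without and 715 and 522 with ActA (log2 fold change 1.32, SE 0.24, adjusted p = 0.00162), and the activin receptors ACVR1B (-0.14), ACVR2A (0.68) and ACVR2B (-0.30) did not pass. FURIN, a protease that matures TGFβ ligands, rose (1.29, adjusted p = 0.000322), as did ENG, an endothelial co-receptor (1.94, adjusted p = 0.00977). FOXH1, the DNA-binding partner of SMAD2, fell from 486 and 469 to 299 and 246 (log2 fold change -0.81, SE 0.15, adjusted p = 0.00191), and the co-receptor TGFBR3 fell too (-0.91, adjusted p = 0.0246). When a library was left out, calls were lost for ENG (without - ActA R1, - ActA R2 or + ActA R2, adjusted p up to 0.119), FOXH1 (without + ActA R2, adjusted p = 0.0523) and TGFBR3 (without - ActA R1 or + ActA R2, adjusted p up to 0.323), and that of TGFBR3 also with DESeq2 on the 4 libraries.

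**Figure D2:**
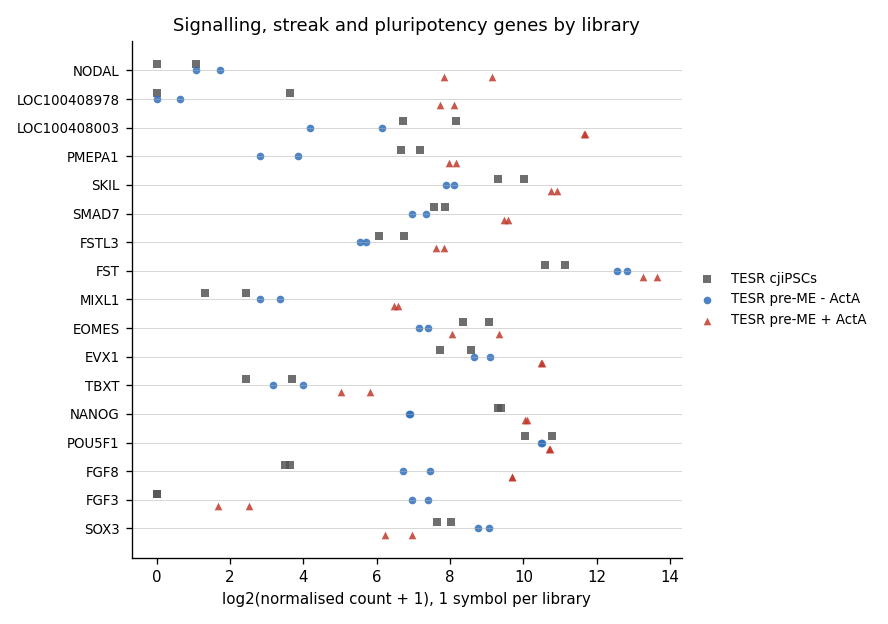
Log2 of the normalised count plus 1 (x) of 17 genes in TESR cjiPSCs (grey squares), TESR pre-ME - ActA (blue circles) and TESR pre-ME + ActA (red triangles), 1 symbol per library and 2 libraries per group. NODAL, the pair of LOC genes, PMEPA1 and MIXL1 are low without ActA and high with it, FGF3 and SOX3 go the other way, and the pre-ME symbols of POU5F1 lie close together.

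Among the transcription factors of the primitive streak and mesendoderm, 16 were tested, 7 rose and 0 fell (edgeR, with 1 lower at an unadjusted p under 0.05 and 0 by DESeq2 on all 20 libraries), with a median log2 fold change of 0.38. MIXL1, a homeobox gene of the streak, had 9.33 and 6.08 normalised counts without and 87.6 and 95.5 with ActA (log2 fold change 3.56, SE 0.38, adjusted p = 1.21e-05). EOMES, the T-box factor that partners SMAD2, had 169 and 142 without and 641 and 267 with ActA (log2 fold change 1.55, SE 0.35, adjusted p = 0.00874). LHX1, a LIM-homeobox gene of the anterior streak and node, had 54.3 and 37.4 without and 536 and 157 with ActA (log2 fold change 2.92, SE 0.75, adjusted p = 0.0197). In the latter 2 genes R1 with ActA was more than 2-fold above R2, while the replicates of MIXL1 lay close. TBXT, the gene of Brachyury, stayed at low counts, 14.8 and 7.95 without and 55.3 and 31.8 with ActA (log2 fold change 1.94, SE 0.47, adjusted p = 0.0175). EVX1, a homeobox gene of the posterior streak, had 547 and 403 without and 1466 and 1426 with ActA (log2 fold change 1.61, SE 0.43, adjusted p = 0.0237). OTX2, a gene of the anterior epiblast and neuroectoderm, rose from 26.9 and 13.6 to 115 and 31.8 (log2 fold change 1.87, SE 0.50, adjusted p = 0.0260). In these 3 genes both + ActA libraries were above both - ActA libraries. The + ActA replicates of OTX2 lay far apart, however, and R2 at 31.8 was close to the 26.9 of - ActA R1. SNAI2, an EMT factor, went from 153 and 139 to 354 and 203 (log2 fold change 0.93, SE 0.18, adjusted p = 0.00294). SP5, a direct WNT target, did not pass (-0.20), nor did MESP1 (-0.23) or TBX6 (-0.25), factors of nascent mesoderm. GSC, the homeobox gene of the organizer, was not tested and had 4 and 1 raw counts without and 29 and 5 with ActA. Its replicates with ActA lay far apart, with the lower of them close to the controls. The call of MIXL1 held in every fit with a library left out. Those of EOMES (without - ActA R1, - ActA R2 or + ActA R1, adjusted p up to 0.347), LHX1 (without - ActA R1, - ActA R2 or + ActA R1, adjusted p up to 0.350), TBXT (without - ActA R1, - ActA R2 or + ActA R1, adjusted p up to 0.256), EVX1 (whichever library was left out, adjusted p up to 0.258), OTX2 (without - ActA R2 or + ActA R1, adjusted p up to 0.697) and SNAI2 (without - ActA R2 or + ActA R1, adjusted p up to 0.0933) were lost. The fold change stayed positive in all of these fits, at 0.78 to 2.05 for EOMES, 1.78 to 3.55 for LHX1, 1.49 to 2.44 for TBXT, 1.40 to 1.85 for EVX1, 0.67 to 2.52 for OTX2 and 0.48 to 1.28 for SNAI2. With DESeq2 on all 20 libraries TBXT, LHX1 and EVX1 did not pass, which left 4 rises in the list. DESeq2 on the 4 libraries gave adjusted p = 0.0533 for EOMES and 0.187 for OTX2, and edgeR on them 0.0728 for OTX2.

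Definitive endoderm genes did not move together: 13 were tested, 2 rose, 2 fell and the median was 0.47. The calls were 15.4% each way, against 5.63% and 3.2% of all tested genes. SOX17, a regulator of endoderm that also marks primate germ cell precursors, had 100.4 and 67.8 normalised counts without and 184 and 73.2 with ActA (log2 fold change 0.62, SE 0.47, adjusted p = 0.548), and the groups overlapped. FOXA2 was barely detected, with 6.03 and 4.21 without and 3.28 and 2.65 with ActA (log2 fold change -0.75, SE 0.71, adjusted p = 0.663). GATA6 rose from 132 and 82.8 to 582 and 337 (log2 fold change 2.10, SE 0.28, adjusted p = 0.000106). KLF5, a factor shared by endoderm, trophectoderm and naive pluripotency, went from 59.8 and 35.6 to 229 and 163 (log2 fold change 2.05, SE 0.36, adjusted p = 0.00121). The genes that fell were PRDM1 (-0.72, adjusted p = 0.0373), the gene of BLIMP1, and RIPK4, a kinase of epithelia (-1.28, adjusted p = 0.0232), and with a library left out the calls of PRDM1 (without - ActA R1, - ActA R2 or + ActA R2, adjusted p up to 0.392) and RIPK4 (without - ActA R2 or + ActA R1, adjusted p up to 0.422) were lost.

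Genes of lateral plate and cardiac mesoderm showed 7 rises and 0 falls among 17 tested (edgeR, with 2 lower at an unadjusted p under 0.05 and 0 by DESeq2 on all 20 libraries), with a median log2 fold change of 0.92. HAND1, a bHLH gene of extraembryonic and lateral mesoderm, had 14.8 and 10.3 normalised counts without and 111 and 55.2 with ActA (log2 fold change 2.72, SE 0.33, adjusted p = 3.69e-05). ISL1, a marker of the second heart field and of amnion, had 207 and 223 without and 934 and 918 with ActA (log2 fold change 2.10, SE 0.17, adjusted p = 9.80e-07). FOXF2 had 79.6 and 57.5 without and 244 and 319.5 with ActA (log2 fold change 2.04, SE 0.25, adjusted p = 4.15e-05). None of these 3 bHLH, homeobox and forkhead genes had overlapping groups. BMPER (2.36, adjusted p = 0.000162) and TBX2 (1.67, adjusted p = 0.00270) rose at lower counts, the call of TBX2 being lost without + ActA R2 (adjusted p = 0.068). HAND2 (-0.84), TBX5 (-0.92) and PDGFRA (0.58) did not pass.

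Genes of paraxial and intermediate mesoderm moved both ways, with 5 rises and 4 falls among 21 tested. OSR1, an early gene of the kidney and body wall mesenchyme, went from 35.7 and 38.4 to 579 and 393 (log2 fold change 3.71, SE 0.42, adjusted p = 2.06e-05). SCX, a tendon progenitor gene, went from 11.5 and 11.2 to 134 and 210.2 (log2 fold change 3.91, SE 0.36, adjusted p = 2.85e-06). WT1, a gene of the urogenital ridge, went from 4.39 and 7.02 to 30.1 and 25.5 (log2 fold change 2.25, SE 0.44, adjusted p = 0.00294). In all 3 the groups did not overlap. In the other direction, DLL1, the NOTCH ligand of presomitic mesoderm, went from 242 and 209.6 to 51.4 and 55.2 (log2 fold change -2.08, SE 0.27, adjusted p = 7.72e-05). MEOX1, a somite gene, went from 6.58 and 4.68 to 0.547 and 0.531, at least 3.48-fold lower (adjusted p = 0.0186). EYA1 (-1.01, adjusted p = 0.00157) and CITED2 (-0.85, adjusted p = 0.00589) also fell. Leaving out a library ended the calls of WT1 (without - ActA R1, adjusted p = 0.0608), MEOX1 (whichever library was left out, adjusted p up to 0.154) and CITED2 (without - ActA R1 or + ActA R2, adjusted p up to 0.0729).

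Blood and endothelial genes gave 6 rises and 0 falls among 16 tested (with 0 lower at an unadjusted p under 0.05 by edgeR and 0 by DESeq2 on all 20 libraries). RUNX1, the regulator of blood stem cell emergence, had 38.4 and 23.4 normalised counts without and 385 and 419 with ActA (log2 fold change 3.71, SE 0.33, adjusted p = 2.05e-06). KDR, the VEGF receptor of mesodermal and endothelial progenitors, had 454 and 527 without and 1451 and 1866 with ActA (log2 fold change 1.76, SE 0.19, adjusted p = 1.45e-05). FLI1 (1.76, adjusted p = 0.000312), LMO2 (1.79, adjusted p = 0.00717), TAL1 (1.36, adjusted p = 0.00619) and FLT1 (1.07, adjusted p = 0.00618) rose as well. The genes of committed endothelium PECAM1 (0.08) and CDH5 (0.28) did not pass, and GATA1 was at the floor. Calls that did not hold with every library left out in turn were those of LMO2 (without - ActA R1, - ActA R2 or + ActA R2, adjusted p up to 0.117), TAL1 (without - ActA R1 or + ActA R2, adjusted p up to 0.0870) and FLT1 (without - ActA R1, - ActA R2 or + ActA R1, adjusted p up to 0.0744).

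**Figure D3:**
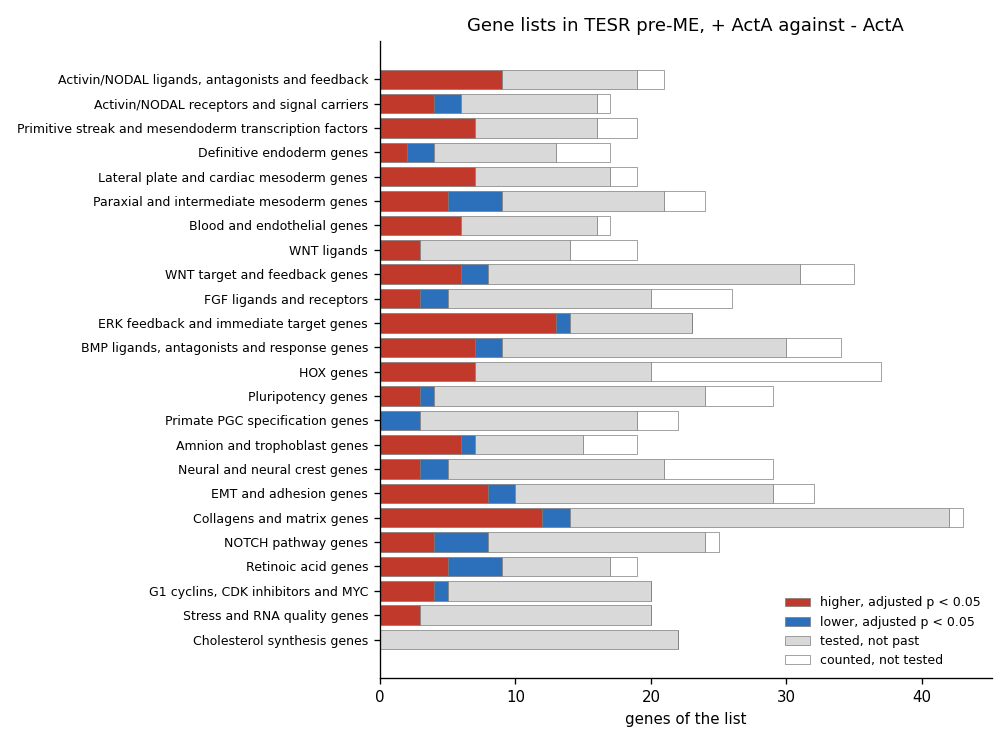
Number of genes (x) in each of 24 gene lists (y) that were higher (red) or lower (blue) with ActA at an adjusted p under 0.05, tested without passing (grey), or counted at levels too low for the test (white). Rises without any fall are seen in 7 lists, while the 22 cholesterol synthesis genes show neither. Over all tested genes 5.63% rose and 3.2% fell, so 0 falls in short lists are near that share.

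All cells were under WNT activation, so the WNT lists ask what ActA added to it. Of 14 tested WNT ligands 3 rose and 0 fell (with 0 lower at an unadjusted p under 0.05 by edgeR and 0 by DESeq2 on all 20 libraries). WNT3, the ligand that initiates the streak in the mouse, had 1.10 and 1.40 normalised counts without and 20.8 and 13.3 with ActA, at least 11.2-fold higher (adjusted p = 0.000137). WNT5A, a ligand of the non-canonical branch, went from 373 and 372 to 1121 and 1183 (log2 fold change 1.63, SE 0.16, adjusted p = 6.26e-06), and WNT7A rose at low counts (2.43, adjusted p = 0.0269). Of 31 tested target and feedback genes 6 rose and 2 fell, and the standard readouts of β-catenin activity AXIN2 (-0.09, SE 0.13), NKD1 (0.13, SE 0.35), SP5 (-0.20, SE 0.19) and TCF7 (-0.43, SE 0.22) did not pass. The secreted inhibitor DKK2 went from 9.88 and 4.21 to 71.7 and 84.4 (log2 fold change 3.47, SE 0.47, adjusted p = 0.000116). DKK1 went from 1242 and 885 to 2921 and 3484 (log2 fold change 1.59, SE 0.30, adjusted p = 0.00228). LEF1, a nuclear partner of β-catenin, rose (1.10, adjusted p = 0.0106), as did LGR5 (1.18, adjusted p = 0.0156), APCDD1 (0.91, adjusted p = 0.00719) and NOTUM (0.65, adjusted p = 0.0169). RNF43, a ligase that removes WNT receptors, fell from 429.6 and 351 to 158 and 130.0 (log2 fold change -1.44, SE 0.33, adjusted p = 0.0103), and so did the antagonist FRZB (-1.83, adjusted p = 0.0314), which did not pass with DESeq2 on all 20 libraries (adjusted p = 0.0626). The rises thus took in ligands and secreted inhibitors as well as LEF1, LGR5 and APCDD1, and the falls an inhibitor each of the receptor and the ligand. Calls lost in a fit without 1 library were those of WNT7A (whichever library was left out, adjusted p up to 0.208), DKK1 (without - ActA R2, adjusted p = 0.0647), LEF1 (without - ActA R1, - ActA R2 or + ActA R2, adjusted p up to 0.119), LGR5 (without - ActA R2 or + ActA R1, adjusted p up to 0.237), APCDD1 (without - ActA R1 or + ActA R2, adjusted p up to 0.0916), NOTUM (without - ActA R1, - ActA R2 or + ActA R2, adjusted p up to 0.295), RNF43 (whichever library was left out, adjusted p up to 0.138) and FRZB (whichever library was left out, adjusted p up to 0.218).

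FGF ligands changed in opposite directions. FGF8, the ligand of the gastrulating streak, had 173 and 105 normalised counts without and 825 and 832 with ActA (log2 fold change 2.58, SE 0.28, adjusted p = 1.46e-05). FGF18 had 4.94 and 4.68 without and 134 and 226 with ActA (log2 fold change 5.19, SE 0.42, adjusted p = 2.11e-06). FGF23, known as a hormone of phosphate balance, had 6.58 and 4.68 without and 49.8 and 46.7 with ActA (log2 fold change 3.09, SE 0.50, adjusted p = 0.000645). FGF3, which is also a streak ligand in the mouse, went from 123 and 169 to 2.19 and 4.78 (log2 fold change -5.34, SE 0.50, adjusted p = 4.86e-06), the largest fall of the 90 lower genes. In TESR cjiPSCs FGF3 had 0 counts in both libraries. Of 20 tested ligands and receptors 3 rose and 2 fell (15% and 10%, against 5.63% and 3.2% of all tested genes). The other fall was that of FGFR2 (-0.84, adjusted p = 0.00195).

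The genes that answer ERK, the kinase cascade downstream of FGF receptors, had the largest share of rises of the 24 lists. Of 23 tested 13 rose and 1 fell, with a median log2 fold change of 0.90. The feedback inhibitor SPRY4 had 418 and 322 normalised counts without and 2786 and 2803 with ActA (log2 fold change 2.92, SE 0.20, adjusted p = 2.85e-07), against 5402 and 5043 in TESR cjiPSCs. DUSP6, the phosphatase of ERK, had 924 and 855 without and 3134 and 3791 with ActA (log2 fold change 1.96, SE 0.16, adjusted p = 9.80e-07), with 9708 and 8571 in cjiPSCs. The ETS factor ETV4 went from 161 and 109 to 659 and 658 (log2 fold change 2.29, SE 0.23, adjusted p = 7.02e-06). ETV5, of the same family, went from 383 and 213 to 1179 and 1158 (log2 fold change 1.97, SE 0.26, adjusted p = 0.000101). The feedback inhibitors SPRY1 (1.12, adjusted p = 0.000846) and IL17RD (1.46, adjusted p = 0.00294) rose as well. For SPRY4, DUSP6, ETV4 and ETV5 both + ActA libraries lay above the - ActA libraries and below those of cjiPSCs. MYC went from 326 and 304 to 1311 and 1241 (log2 fold change 2.02, SE 0.28, adjusted p = 0.000170). FOSL1 went from 21.4 and 11.2 to 112 and 96.1 (log2 fold change 2.68, SE 0.50, adjusted p = 0.00203). EGR2, an immediate early gene, fell (-1.73, adjusted p = 0.00369), whereas EGR1 had 2780.4 and 2576 without and 963 and 1123 with ActA (log2 fold change -1.36, SE 0.43, adjusted p = 0.0580). FOS had 738 and 467 without and 314 and 255 with ActA (log2 fold change -1.08, SE 0.42, adjusted p = 0.136). When a library was left out, calls were lost for FOSL1 (without - ActA R2, adjusted p = 0.0587) and EGR2 (without + ActA R1, adjusted p = 0.0547).

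In the BMP list 7 of 30 tested genes rose and 2 fell, with a median of 0.12. These were 23.3% and 6.67%, against 5.63% and 3.2% of all tested genes. The rises took in ligands, an antagonist and a receptor. BMP4, the ligand of the posterior embryo, had 353 and 224 normalised counts without and 1404 and 1011 with ActA (log2 fold change 2.07, SE 0.36, adjusted p = 0.00110), while BMP2 had 13.2 and 14.0 without and 58.6 and 23.9 with ActA (log2 fold change 1.59, SE 0.52, adjusted p = 0.0735). NOG, the gene of the secreted antagonist noggin, went from 315 and 261 to 866 and 749 (log2 fold change 1.49, SE 0.26, adjusted p = 0.00113). For both NOG and BMP4 the libraries of the groups did not overlap. The inhibitory SMAD6 (1.26, adjusted p = 0.00279), the receptor BMPR2 (1.43, adjusted p = 0.000886) and the ligand GDF7 (2.16, adjusted p = 0.00159) rose. The direct BMP readouts ID1 (0.27, SE 0.24), ID2 (-0.42, SE 0.19) and ID3 (-0.11, SE 0.20) did not pass. BMP3 fell from 103 and 168 to 26.3 and 45.1 (log2 fold change -1.92, SE 0.27, adjusted p = 0.000154). TFAP2A, a gene of amnion and neural crest, went from 66.4 and 62.2 to 14.2 and 17.5 (log2 fold change -2.01, SE 0.46, adjusted p = 0.00932). Calls lost with a library left out were SMAD6 (without - ActA R2, adjusted p = 0.0665) and TFAP2A (without - ActA R1, + ActA R1 or + ActA R2, adjusted p up to 0.108).

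HOX genes rose in a posterior group of the A cluster. Of 37 counted HOX genes 20 were tested, 7 rose and 0 fell (with 0 lower at an unadjusted p under 0.05 by edgeR and 0 by DESeq2 on all 20 libraries), with a median log2 fold change of 0.96. DESeq2 on all 20 libraries called 4 higher, all of the A cluster, and gave no adjusted p for the other 3. HOXA9 had 9.88 and 13.1 normalised counts without and 329 and 302 with ActA (log2 fold change 4.76, SE 0.33, adjusted p = 2.72e-07). HOXA10 had 4.94 and 8.89 without and 124 and 110.4 with ActA (log2 fold change 4.04, SE 0.44, adjusted p = 1.21e-05). HOXA13 had 65.3 and 68.3 without and 263 and 220.3 with ActA (log2 fold change 1.85, SE 0.31, adjusted p = 0.000943). HOXA11 had 1.10 and 0.468 without and 31.7 and 27.1 with ActA, at least 19.3-fold higher (adjusted p = 0.000917). In these 4 genes both + ActA libraries stood above both - ActA libraries, and the + ActA replicates lay close. The anterior genes HOXA2 (0.38, SE 0.49) and HOXA3 (0.23, SE 0.42) of the same cluster did not pass. Outside the A cluster, HOXD9 (3.04, adjusted p = 0.00798), HOXB6 (2.15, adjusted p = 0.0388) and HOXC6 (1.63, adjusted p = 0.0343) rose at low counts, and HOXD9 had 2.19 and 1.40 normalised counts without and 15.9 and 14.9 with ActA. Leaving out a library ended the calls of HOXD9 (without - ActA R1, - ActA R2 or + ActA R1, adjusted p up to 0.145), HOXB6 (whichever library was left out, adjusted p up to 0.265) and HOXC6 (whichever library was left out, adjusted p up to 0.268), and those of HOXB6 and HOXC6 also with DESeq2 on the 4 libraries. The caudal gene CDX1, an activator of HOX genes, did not pass (-0.04, SE 0.21), nor did CDX2 (0.58, SE 0.29). HOXA10 and HOXA11 are neighbours, and reads in shared transcripts could have been counted on either gene.

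**Figure D4:**
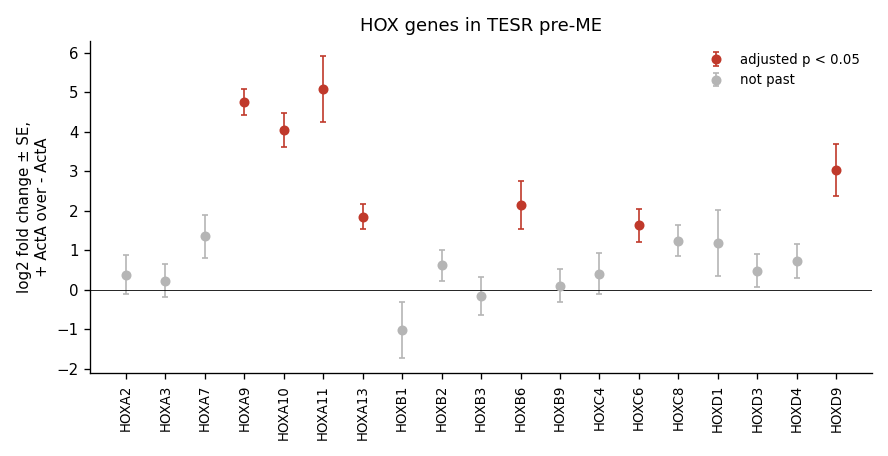
Log2 fold change with ActA (y, error bars are the SE) of 19 of the tested HOX genes (x), ordered by cluster and number. HOXA9, HOXA10, HOXA11 and HOXA13 are at 1.85 or above, while HOXA2 and HOXA3 are at 0.38 and 0.23.

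Of the pluripotency genes, NANOG stood apart from the rest. It had 117 and 119 normalised counts without and 1052 and 1106 with ActA (log2 fold change 3.19, SE 0.29, adjusted p = 2.05e-06), so that the + ActA cells exceeded the 669 and 633 of TESR cjiPSCs. POU5F1 had 1435 and 1463 without and 1647 and 1706 with ActA (log2 fold change 0.21, SE 0.17, adjusted p = 0.577). SOX2 had 3024 and 3275 without and 2318 and 2633 with ActA (log2 fold change -0.35, SE 0.25, adjusted p = 0.513). Of 24 tested genes 3 rose, namely NANOG, KLF5 and OTX2, and 1 fell, the surface gene CD24 (-0.60, adjusted p = 0.0163). CD24 lost its call in each of the 4 fits with a library left out. NANOG has processed copies in primate genomes, and how reads shared with them were counted is not given in the sources used here.

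Of 19 tested genes of germ cell specification 0 rose by edgeR, with 2 higher at an unadjusted p under 0.05 and 1 by DESeq2 on all 20 libraries. The 3 that fell were PRDM1, TFAP2A and ITGA6, a laminin receptor whose level went from 1763 and 1935 to 732 and 726 (log2 fold change -1.34, SE 0.25, adjusted p = 0.00218). TFAP2C had 30.2 and 22 normalised counts without and 32.8 and 20.7 with ActA (log2 fold change 0.04, SE 0.46, adjusted p = 0.986). NANOS3 had 2.74 and 2.34 without and 6.02 and 3.72 with ActA (log2 fold change 0.91, SE 0.76, adjusted p = 0.602), and KIT did not pass (0.31, SE 0.21). Amnion and trophoblast genes gave 6 rises and 1 fall among 15 tested. IGFBP3 had 42.8 and 35.1 without and 408 and 727 with ActA (log2 fold change 3.87, SE 0.72, adjusted p = 0.00202). KRT18 had 2111 and 1146 without and 5417 and 3809 with ActA (log2 fold change 1.5, SE 0.32, adjusted p = 0.00623), next to HAND1, ISL1, BAMBI and HEY1 (0.86, adjusted p = 0.000947), while GATA3 (0.82, SE 0.26), GABRP (-0.95, SE 0.76) and VTCN1 (-0.30, SE 1.04) did not pass and TFAP2A fell. KRT18 lost its call in 2 of the 4 fits with a library left out, with an adjusted p up to 0.13.

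In the neural and neural crest list 3 of 21 tested genes rose (OTX2, SOX9 at 1.42, adjusted p = 0.00153, and LHX2 at 1.39, adjusted p = 0.00284) and 2 fell, SOX3 and NKX6-1. These were 14.3% and 9.52%, against 5.63% and 3.2% of all tested genes. The median log2 fold change was 0.01. SOX3, which with SOX2 marks neural progenitors, had 432 and 536 normalised counts without and 73.3 and 123 with ActA (log2 fold change -2.30, SE 0.38, adjusted p = 0.000680). NKX6-1, a homeobox gene of the ventral neural tube, went from 20.3 and 30.9 to 4.38 and 6.37 (log2 fold change -2.23, SE 0.45, adjusted p = 0.00373). PAX6 had 17.0 and 18.7 without and 41.0 and 36.6 with ActA (log2 fold change 1.11, SE 0.46, adjusted p = 0.168). Genes outside the list, named for the size of their fall, were OLIG3, HES3 and ATOH1. OLIG3, a bHLH gene of the dorsal neural tube, had 133 and 248 without and 17.5 and 22.8 with ActA (log2 fold change -3.24, SE 0.87, adjusted p = 0.0261). HES3, a repressor of neural differentiation, had 262 and 399 without and 15.9 and 43.0 with ActA (log2 fold change -3.48, SE 0.65, adjusted p = 0.00216). OLIG3 and HES3 varied more between replicates than SOX3 without ActA. ATOH1, a bHLH gene of hindbrain and hair cell precursors, went from 15.4 and 9.83 to 1.64 and 0, at least 7.79-fold lower (adjusted p = 0.00751). OLIG3, HES3 and ATOH1 were named from genes whose groups did not overlap, so this is no separate support for them. In SOX3 and NKX6-1 the groups did not overlap either. Calls lost with a library left out were OLIG3 (without - ActA R2, + ActA R1 or + ActA R2, adjusted p up to 0.211), HES3 (without + ActA R1, adjusted p = 0.0533), NKX6-1 (without - ActA R2 or + ActA R1, adjusted p up to 0.0693), ATOH1 (without + ActA R2, adjusted p = 0.0862) and LHX2 (without - ActA R1 or + ActA R2, adjusted p up to 0.0639).

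Among genes of EMT and adhesion 8 of 29 rose and 2 fell (27.6% and 6.9%, against 5.63% and 3.2% of all tested genes). FN1, the gene of fibronectin, rose from 9418 and 10774 to 49183 and 51148 normalised counts (log2 fold change 2.31, SE 0.24, adjusted p = 8.00e-06). The integrin subunits ITGA2 (2.15, adjusted p = 1.72e-05), ITGAV (1.12, adjusted p = 0.000999) and ITGA5 (0.88, adjusted p = 0.0112) rose and ITGA6 fell. The cadherins CDH1 (0.02, SE 0.23) and CDH2 (-0.07, SE 0.17), whose exchange marks EMT, did not pass, nor did SNAI1 (0.51, SE 0.25) or VIM (0.39, SE 0.22). CDH1 had 34.0 and 42.6 without and 38.3 and 39.8 with ActA, against 1710 and 2012 in TESR cjiPSCs. CDH2 had 5042 and 5719 without and 4855 and 5385 with ActA, against 4220 and 3919 in TESR cjiPSCs. The change from cjiPSCs to pre-ME was not tested. Of 42 tested collagens and matrix genes 12 rose and 2 fell (28.6% and 4.76%). TGFBI, a matrix protein named for its induction by TGFβ, had 310.0 and 293 without and 1300.3 and 1178 with ActA (log2 fold change 2.04, SE 0.27, adjusted p = 0.000108). TNC had 179 and 128 without and 485 and 375 with ActA (log2 fold change 1.49, SE 0.27, adjusted p = 0.00179). LAMB1, a laminin chain of basement membranes, had 1988 and 2169.9 without and 4538 and 4841 with ActA (log2 fold change 1.17, SE 0.17, adjusted p = 0.000288). COL1A1 had 522 and 353 without and 2236 and 1515 with ActA (log2 fold change 2.10, SE 0.64, adjusted p = 0.0513), so that the libraries did not overlap but the gene did not pass. LOX, the enzyme that crosslinks collagen, is in none of the lists and had 133 and 226 without and 3239 and 5056 with ActA (log2 fold change 4.52, SE 0.36, adjusted p = 8.17e-07). Calls lost with a library left out were ITGA5 (without - ActA R1, - ActA R2 or + ActA R1, adjusted p up to 0.152) and TNC (without - ActA R2, adjusted p = 0.0504).

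In the NOTCH list 4 of 24 genes rose and 4 fell (16.7% each, against 5.63% and 3.2% of all tested genes). HES1, the common target, had 124 and 41.2 normalised counts without and 324 and 264 with ActA (log2 fold change 1.84, SE 0.31, adjusted p = 0.000985). MAML2, a co-activator, had 139 and 137 without and 393 and 449.5 with ActA (log2 fold change 1.61, SE 0.16, adjusted p = 5.20e-06). The falls were those of DLL1, HES3, HEYL (-1.28, adjusted p = 0.0404) and MFNG (-1.63, adjusted p = 0.0209). In the retinoic acid list 5 of 17 rose and 4 fell (29.4% and 23.5%). CYP26B1, an enzyme that degrades retinoic acid, went from 20.8 and 19.7 to 679 and 415 (log2 fold change 4.75, SE 0.35, adjusted p = 3.42e-07). CRABP1, a binding protein, went from 141 and 191 to 61.3 and 65.3 (log2 fold change -1.39, SE 0.25, adjusted p = 0.00170). The receptor RXRG went from 129 and 95.0 to 41.6 and 20.7 (log2 fold change -1.85, SE 0.31, adjusted p = 0.000954). CYP26A1 had 91.1 and 108 without and 296 and 116 with ActA (log2 fold change 1.05, SE 0.54, adjusted p = 0.312). The other rises were those of ALDH1A3, an enzyme that makes retinoic acid (2.46, adjusted p = 0.0193), DHRS3, which reduces retinal (1.52, adjusted p = 0.0162), STRA6, the receptor for retinol uptake (1.14, adjusted p = 0.0289), and the receptor RARA (0.69, adjusted p = 0.0156). RARG (-0.65, adjusted p = 0.00692) and RDH10, which oxidises retinol (-0.65, adjusted p = 0.0284), also fell. Enzymes of synthesis and of degradation were thus both among the rises. The calls of HEYL (whichever library was left out, adjusted p up to 0.268), MFNG (without - ActA R2, + ActA R1 or + ActA R2, adjusted p up to 0.302), ALDH1A3 (whichever library was left out, adjusted p up to 0.250), DHRS3 (without - ActA R2 or + ActA R1, adjusted p up to 0.227), STRA6 (whichever library was left out, adjusted p up to 0.282), RARA (whichever library was left out, adjusted p up to 0.177), RARG (without - ActA R1, + ActA R1 or + ActA R2, adjusted p up to 0.108) and RDH10 (whichever library was left out, adjusted p up to 0.178) were lost with a library left out, and that of HES1 with DESeq2 on the 4 libraries (adjusted p = 0.071), and MFNG did not pass with DESeq2 on all 20 libraries either (adjusted p = 0.106).

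The cyclin list gave 4 rises and 1 fall among 20 (20% and 5%, against 5.63% and 3.2% of all tested genes). CDKN2B, an inhibitor of CDK4 and CDK6 that TGFβ is known to induce, went from 22.5 and 13.6 to 319 and 339.7 (log2 fold change 4.20, SE 0.35, adjusted p = 9.80e-07), whereas CDKN1A did not pass (0.44, SE 0.31). CDKN2A (0.99, adjusted p = 0.0102), MYC and CCND1 (0.79, adjusted p = 0.0337) rose, and MYCL fell (-0.85, adjusted p = 0.00359). The calls of CDKN2A (without - ActA R1, - ActA R2 or + ActA R2, adjusted p up to 0.124), CCND1 (whichever library was left out, adjusted p up to 0.272) and MYCL (without + ActA R1, adjusted p = 0.0655) were lost with a library left out. Of 20 stress genes 3 rose and 0 fell (with 0 lower at an unadjusted p under 0.05 by edgeR and 0 by DESeq2 on all 20 libraries), led by GADD45B, which went from 208 and 127 to 825 and 913 (log2 fold change 2.38, SE 0.37, adjusted p = 0.000489). Of 22 cholesterol synthesis genes 0 rose and 0 fell by edgeR and by DESeq2 on all 20 libraries. At an unadjusted p under 0.05 by edgeR 1 was higher and 0 lower, and the log2 fold changes ran from -0.21 to 0.52. Over all tested genes 5.63% rose and 3.2% fell, so 0 of either among 22 is near that share.

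Outside the lists, genes among the largest fold changes were of varied kinds. EDN1, the vasoactive peptide endothelin 1, had 23.6 and 27.6 normalised counts without and 804 and 845 with ActA (log2 fold change 5.0, SE 0.56, adjusted p = 1.90e-05). VWDE, a protein with von Willebrand factor D and EGF domains, had 4.94 and 3.74 without and 186 and 256 with ActA (log2 fold change 5.64, SE 0.42, adjusted p = 3.42e-07). UCN3, a peptide of the corticotropin-releasing factor family, had 0.549 and 0 without and 10.4 and 32.4 with ActA, at least 14.0-fold higher (adjusted p = 0.00267). TIMP4, an inhibitor of metalloproteinases, had 1.10 and 0.468 without and 19.2 and 30.3 with ActA, at least 16.2-fold higher (adjusted p = 0.000453). Each of these was low in both - ActA libraries and many times higher in both + ActA libraries. SPSB1, an adaptor of ubiquitin ligases, had 7.68 and 4.68 without and 293 and 339 with ActA (log2 fold change 5.67, SE 0.42, adjusted p = 3.78e-07). ADGRF2, an adhesion receptor, had 2.19 and 2.34 without and 188 and 95.5 with ActA (log2 fold change 5.89, SE 0.52, adjusted p = 1.97e-06). CHRM4, a muscarinic receptor, had 4.39 and 2.81 without and 96.3 and 129.5 with ActA (log2 fold change 4.95, SE 0.63, adjusted p = 7.21e-05). All 3 were at low counts without ActA. GSX2, a homeobox gene of the ventral forebrain, had 0 and 0.468 without and 30.6 and 51.5 with ActA, at least 26.9-fold higher (adjusted p = 0.000322). CIDEC, a lipid droplet protein, had 0 and 0 without and 14.8 and 6.37 with ActA, at least 6.93-fold higher (adjusted p = 0.00580). ART3 had 0 and 0 without and 2.74 and 5.31 with ActA, at least 2.64-fold higher (adjusted p = 0.00843). Calls lost with a library left out were UCN3 (without - ActA R2, adjusted p = 0.0540), CIDEC (without - ActA R2 or + ActA R1, adjusted p up to 0.0699) and ART3 (without - ActA R1, - ActA R2 or + ActA R2, adjusted p up to 0.0959).

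The lower genes with the largest fold changes among those whose mean normalised count reached 100 were HES3, OLIG3 and SOX3, described above, and 7 others. PCDH8, a protocadherin expressed in presomitic mesoderm, had 526 and 495 normalised counts without and 71.1 and 75.4 with ActA (log2 fold change -2.80, SE 0.37, adjusted p = 8.11e-05). SEMA3E, a secreted guidance cue, had 1198 and 1476 without and 241 and 213 with ActA (log2 fold change -2.56, SE 0.20, adjusted p = 4.79e-07). GRIA1, a subunit of AMPA glutamate receptors, had 655 and 957 without and 141 and 146 with ActA (log2 fold change -2.49, SE 0.21, adjusted p = 9.90e-07). These 3 were at high counts without ActA and lost most of them with it. DCC, the netrin receptor, had 148 and 216 without and 29.0 and 40.3 with ActA (log2 fold change -2.39, SE 0.28, adjusted p = 2.65e-05). The cadherin CDH10 had 324 and 376 without and 61.3 and 75.9 with ActA (log2 fold change -2.35, SE 0.33, adjusted p = 0.000182). CCDC85A had 352 and 415 without and 66.2 and 80.1 with ActA (log2 fold change -2.39, SE 0.26, adjusted p = 1.56e-05). ST8SIA3, a sialyltransferase, had 195 and 300.4 without and 49.3 and 48.3 with ActA (log2 fold change -2.35, SE 0.60, adjusted p = 0.0189). In all 7 the libraries of the groups did not overlap, and the replicates lay closer to each other than to the other group.

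Among lower genes of smaller level, MYH2, a myosin heavy chain of skeletal muscle, had 97.7 and 92.2 normalised counts without and 6.02 and 5.84 with ActA (log2 fold change -3.98, SE 0.50, adjusted p = 5.42e-05). DGKK, a diacylglycerol kinase, had 66.4 and 77.2 without and 5.47 and 3.72 with ActA (log2 fold change -3.94, SE 0.53, adjusted p = 1.00e-04). NDP, a secreted ligand that signals through Frizzled 4, had 28.0 and 40.7 without and 3.83 and 3.72 with ActA (log2 fold change -3.15, SE 0.52, adjusted p = 0.000741). In these 3 the replicates of each group lay close. GRIK1, a kainate receptor subunit, had 13.7 and 29.5 without and 2.19 and 0.531 with ActA (log2 fold change -3.91, SE 0.66, adjusted p = 0.00135). SKOR1, a SKI family co-repressor, had 14.3 and 23.9 without and 2.19 and 1.59 with ActA (log2 fold change -3.27, SE 0.59, adjusted p = 0.00191). CCNB3, a cyclin of meiosis, had 14.3 and 22 without and 1.64 and 0 with ActA, at least 11.2-fold lower (adjusted p = 0.00351). With ActA all 3 were at a few counts. SBSPON had 10.4 and 11.7 without and 1.64 and 0 with ActA, at least 6.84-fold lower (adjusted p = 0.0117). FLG, the gene of filaggrin, had 9.33 and 9.83 without and 1.09 and 0 with ActA, at least 5.92-fold lower (adjusted p = 0.00939). DENND1C had only 5 and 3 raw counts without and 0 and 0 with ActA, and SH2D6 had 9 and 10 without and 0 and 1 with ActA. At these low counts neither passed with DESeq2 on all 20 libraries. ST8SIA3 did not pass in that fit either (adjusted p = 0.0749). Calls that did not hold with every library left out in turn were those of ST8SIA3 (without - ActA R2, + ActA R1 or + ActA R2, adjusted p up to 0.178), CCNB3 (without + ActA R2, adjusted p = 0.0549), SBSPON (without - ActA R2 or + ActA R2, adjusted p up to 0.143), DENND1C (whichever library was left out, adjusted p up to 0.191) and SH2D6 (whichever library was left out, adjusted p up to 0.321), and FLG was not among the tested genes in any fit with a library left out.

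In the RefSeq order of calJac240_pri, 306 of the 316 differentially expressed genes were found, and 8 pairs of them were direct neighbours. The genes of all 8 pairs had the same direction, which is a description of few pairs, some of which may share reads. The higher pairs included DACT2 and SMOC2 (3.10 and 2.68), CSRNP1 and XIRP1 (2.37 and 2.73), and HOXA10 and HOXA11. The lower pairs were CCNB3 and DGKK, MAOB (-2.62) and NDP, and RORB (-2.24) with its non-coding neighbour LOC103792776 (-2.73). Calls lost with a library left out were DACT2 (without - ActA R2 or + ActA R1, adjusted p up to 0.210), XIRP1 (without - ActA R1 or + ActA R1, adjusted p up to 0.0841) and MAOB (without - ActA R2 or + ActA R2, adjusted p up to 0.0669).

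The same treatment of cells kept in cjPSCM was measured in groups that share no library with these. There 1799 genes (11.4% of 15797) rose and 1507 (9.54%) fell. Of the genes that rose in TESR pre-ME 557 also rose in cjPSCM pre-ME, 62.6% of the TESR list and 31.0% of the cjPSCM list, and 221 fell in both, 43.7% and 14.7%. Of the 226 differentially expressed higher genes 215 had a positive fold change in cjPSCM pre-ME and 158 rose there, and of the 90 lower genes 85 were negative and 48 fell. NODAL had 0 and 0.991 normalised counts without and 224 and 53.4 with ActA in cjPSCM pre-ME, CYP26B1 had 6.48 and 5.94 without and 279.5 and 166 with ActA, and HOXA9 had 2.95 and 0.991 without and 243 and 178 with ActA. LOC100408978 had 0 and 0 without and 282 and 154 with ActA there. For none of these 4 genes did the interaction test pass (adjusted p = 0.909, 0.764, 0.179 and 0.764). Opposite calls were rare: 8 genes rose in TESR pre-ME and fell in cjPSCM pre-ME, and 4 did the reverse.

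The difference between the media was tested gene by gene as an interaction. The ActA effect was higher in TESR than in cjPSCM pre-ME for 38 genes (0.241%) and lower for 25 (0.158%), with 2747 genes at an unadjusted p under 0.05. Of the 1396 genes that changed in TESR pre-ME, 45 were among them, 30 with a higher and 15 with a lower effect. LOX rose in TESR pre-ME as given above, but had 744 and 872 normalised counts without and 1419 and 1636 with ActA in cjPSCM pre-ME (difference of the log2 fold changes 3.62, SE 0.46, adjusted p = 0.00402). SERINC5, a restriction factor of retroviruses, had 166 and 97.8 without and 1119.7 and 598 with ActA in TESR and 505 and 494 without and 562 and 517 with ActA in cjPSCM (difference 2.61, SE 0.37, adjusted p = 0.00673). NANOG had 758 and 988 without and 1406 and 1581 with ActA in cjPSCM, and so lay above the TESR level without ActA in either group (difference 2.44, SE 0.38, adjusted p = 0.0114). GATA6, which rose in TESR pre-ME, had 421 and 388 without and 459 and 349.7 with ActA in cjPSCM (difference 2.11, SE 0.39, adjusted p = 0.0227). CPEB2 had a log2 fold change of 1.23 in TESR and -0.38 in cjPSCM (adjusted p of the difference 0.00673), MFAP5 of 1.10 and -0.68 (0.00673) and PARP14 of 1.37 and -0.34 (0.00673).

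In the other direction, NOTUM, which inactivates WNT ligands, rose less in TESR pre-ME, from 795 and 918 to 1151 and 1544, than in cjPSCM, with 105 and 92.1 without and 549 and 379 with ActA (difference -1.57, SE 0.24, adjusted p = 0.0120). NKX2-3, a homeobox gene of the gut mesenchyme, had 28.0 and 16.4 without and 102 and 133 with ActA in TESR and 29.5 and 30.7 without and 1133 and 1288 with ActA in cjPSCM (difference -2.89, SE 0.49, adjusted p = 0.0154). LRRTM1, a synaptic adhesion protein, had 31.3 and 33.2 without and 2.19 and 6.90 with ActA in TESR and 298 and 320.0 without and 280.4 and 403 with ActA in cjPSCM (difference -2.91, adjusted p = 0.0154), and SAMD14 had 356 and 393 without and 201 and 240.4 with ActA against 269 and 184 without and 562 and 492 with ActA (difference -1.95, adjusted p = 0.00402). HIP1R, an endocytic adaptor, had 679 and 709 without and 363 and 394 with ActA against 1206 and 1072 without and 1287 and 1351 with ActA (difference -1.07, adjusted p = 0.0200). The TESR calls of SAMD14 (without - ActA R2 or + ActA R1, adjusted p up to 0.164) and of NOTUM, given above, were lost with a library left out. The numbers of such genes depended on the libraries and on the fit: with 1 of the 8 left out between 4 and 25 genes had a higher and between 2 and 28 a lower effect in TESR, against 1334 and 1179 with edgeR on the 8 libraries alone, 1165 and 1119 with DESeq2 on them, 185 and 149 with DESeq2 on all 20 and 467 and 268 without a filter on low counts. The replicates of cjPSCM pre-ME lay further apart than those of TESR pre-ME, and their part in the differences was not tested.

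**Figure D5:**
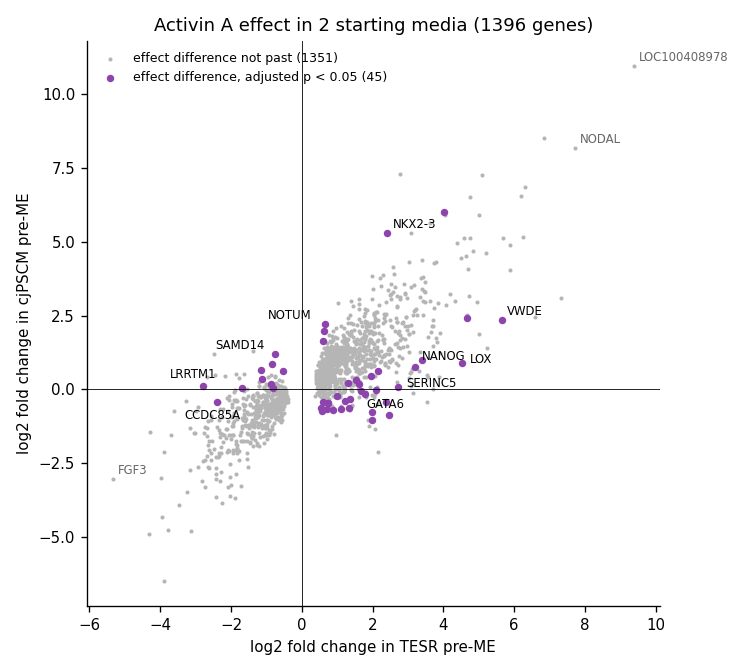
Log2 fold change with ActA in TESR pre-ME (x) against that in cjPSCM pre-ME (y) for the 1396 genes that changed in TESR pre-ME, with no library shared by the axes. The 45 genes in purple differ between the media at an adjusted p under 0.05, and most points lie in the quadrants of equal sign.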

How the data were processed

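Poly(A) RNA of the 4 TESR pre-ME cultures was sequenced as paired-end reads of 100 bases together with the other 16 libraries. Per the labels and methods, the authors checked reads with FastQC 0.11.8, mapped them with STAR 2.7.0a to calJac4 and counted them per gene with HTSeq 0.11. They deposited raw counts and a signal table of normalised counts, the counts divided by DESeq2 size factors. The strand setting and annotation release are not given in the sources used here. Reads outside genes were 19.3% to 20.6% of the deposited counts in the 4 libraries and were left out. The floor of 3 counts covers counting error only, whereas the SEs come from the edgeR fit and include the spread between replicates.

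Tests were run on raw counts with edgeR 4.0.16 in R 4.3.3, with TMM scaling, filterByExpr and 1 coefficient for each of the 10 groups over all 20 libraries (10 residual degrees of freedom, glmQLFTest, Benjamini-Hochberg over 15797 genes). Fold changes are fitted values, levels are the deposited normalised counts, and levels are not compared between genes since lengths were not used. A fold against a group with both libraries at or under 3 counts is a bound. Alternatives were DESeq2 1.42.0, fits of the comparison's libraries only, other scaling and filters, glmTreat, a replicate block and each library left out. On simulated counts with 200 changed genes, edgeR found 106 of 107 changes of log2 3 and 80 of 93 of log2 1.5, with 18 other genes called. The changed genes were drawn only from those above 1 CPM, and the counts from the model and spread that edgeR had fitted. The recovery therefore does not cover genes at lower counts or departures from that model.

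Genes named are the central members and largest changes of 24 gene lists, the 15 largest changes each way with a symbol, the 10 each way whose mean normalised count reached 100, and the 5 each way with the smallest interaction p. The 15 each way were taken only from differentially expressed genes whose libraries did not overlap between the groups. For those genes the lack of overlap is part of the choice and no separate support. The genes on either side of the fold threshold, LOC genes, VWDE, LOX, neighbouring pairs and the genes that did not pass were chosen after their values were seen, and the lists and the comparison were chosen with earlier results of these data known. Gene names were matched to RefSeq (assembly calJac240_pri) by gene identifier or symbol for 21548 of 25102 genes, and since that build differs no coordinates are given. A few genes that these rules name are not reported here.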

Additional observations from a re-analysis of the deposited data

Results flagged for a closer look

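The ActA effect of 16 named genes differed between TESR and cjPSCM pre-ME in the test of the difference itself (edgeR interaction, adjusted p under 0.05), and each is given as the log2 fold change in TESR minus that in cjPSCM. It was higher in TESR for LOX (3.62), VWDE (3.28), SERINC5 (2.61), NANOG (2.44), PTGER2 (2.78), GATA6 (2.11), MFAP5 (1.79), PARP14 (1.71) and CPEB2 (1.61). It was lower in TESR for LRRTM1 (-2.91), NKX2-3 (-2.89), CCDC85A (-1.96), SAMD14 (-1.95), CDX1 (-1.72), NOTUM (-1.57) and HIP1R (-1.07).

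VWDE had 22.4 and 10.9 normalised counts without and 111 and 68.8 with ActA in cjPSCM pre-ME (adjusted p of the difference 0.0154). PTGER2, a prostaglandin E2 receptor, had 108 and 133 without and 468 and 494 with ActA in TESR pre-ME and 89.0 and 94.1 without and 55.1 and 52.0 with ActA in cjPSCM pre-ME (adjusted p = 0.0227). CCDC85A had 202 and 215 without and 159 and 153 with ActA there (adjusted p = 0.0249). CDX1, which did not pass in TESR pre-ME with 860.2 and 937 without and 727 and 1028 with ActA, had 199 and 147 without and 678 and 449 with ActA in cjPSCM pre-ME (adjusted p = 0.0206).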

How the results depend on the processing

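The counts of differentially expressed genes stayed within 1.5 times the reported 226 and 90 in edgeR and DESeq2 fits that kept every library compared. This held with either scaling and with other filters. They left that range with glmTreat against a log2 fold change of 2, which called 45 higher and 2 lower genes. The lower count also left it in the fits without - ActA R2 and without + ActA R2. With 1 library left out there were 151 to 203 higher and 56 to 75 lower genes. At the adjusted p alone, edgeR on the 4 libraries only called 2321 higher and 1975 lower genes and DESeq2 on them 1768 and 1210, against 890 and 506 reported, and with 1 library left out 379 to 536 and 174 to 240. The fits of only the libraries compared take the spread from groups whose replicates lay closer together than the rest of the series. Its part in these counts was not tested. The counts of genes whose effect was higher or lower in TESR than in cjPSCM pre-ME, reported as 38 and 25, were 1334 and 1179 with edgeR on the 8 libraries only, 185 and 149 with DESeq2 on all 20, 1165 and 1119 with DESeq2 on the 8, 467 and 268 without a filter on low counts, and 4 to 25 and 2 to 28 with 1 library left out. The cause of the DESeq2 and filter differences was not tested either.

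Same-numbered replicates deviated together with a correlation of 0.215 across genes in TESR and 0.222 in cjPSCM pre-ME, over 2 pairs each, and share only a number. With the replicate block there were 226 higher and 86 lower differentially expressed genes, 816 and 444 at the adjusted p alone, and 37 and 31 for the difference between media. It ended the calls of CCND1 (adjusted p = 0.0569), FRZB (0.0575), HEYL (0.0721), HOXB6 (0.065), HOXC6 (0.0616), SH2D6 (0.0771) and STRA6 (0.0623), and of no other gene named. Of the 172 named genes that passed, 155 had a value in all 11 alternatives run for single genes, and 100 of these kept the call in each. The other 17 missed the filter in some alternatives, and 3 of them kept the call where it was computed (FLG in 5, WNT3 and LOC118153643 in 10 each). In all 69 lost it in at least 1 and 0 changed sign. Of the 55 that did not pass, 26 passed in at least 1. CER1 and GSC, not tested in the main fit, passed in the edgeR fit without a filter on low counts (adjusted p = 0.0259 and 0.00727). At these depths a gene at 3 counts or fewer in a group has a bound in place of a fold.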
